A study of Mus musculus with 8 samples.

Results

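In the mouse ventral hippocampus, 8 long noncoding RNAs were examined, *Gas5*, *Meg3*, *Malat1*, *Neat1*, *Miat*, *Rian*, *Snhg11* and *Peg13*, chosen by name as *Gas5* and 7 long noncoding RNAs regarded as abundant in brain. All 8 members were found among the 50686 genes of the count table and all 8 were among the 16018 genes with enough reads to be tested. The tissue came from 8-week-old male C57BL/6J mice that carried no transgene and were killed 3 h after an injection given in the morning. 4 mice had received vehicle and 4 mice had received corticosterone at 3 mg/kg, and each mouse gave 1 library of stranded, mRNA-enriched RNA. The comparison asks whether a raised level of the natural glucocorticoid (GC) changed the level of these RNAs within 3 h.

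Long noncoding RNAs are transcripts that act as RNA or through the act of their transcription. *Gas5* carries small nucleolar RNAs (snoRNAs) in its introns, begins with the pyrimidine-rich start of mRNAs of the translation machinery, and can bind the DNA-binding domain of the glucocorticoid receptor (GR) with a folded stretch that resembles its DNA element. *Malat1* resides in nuclear speckles, domains rich in splicing factors, *Neat1* is the scaffold of paraspeckles, and *Miat* forms nuclear foci of its own in neurons. *Meg3* and *Rian* are expressed from the maternal copy of the imprinted Dlk1-Dio3 domain, *Peg13* from the paternal copy of a domain that also holds *Trappc9* and *Kcnk9*, and *Snhg11* is a snoRNA host gene of neurons.

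The sequences below were selected for 2 reasons. A promoter is among the places where a response to the hormone could be written. The ends of *Malat1* and *Neat1* bear on how a library enriched for mRNA captures them. The promoter windows were taken from RefSeq on GRCm38.p6, with 250 bases before and 50 after the start of the gene. They matched 6 of the 8 members in 8 windows, and *Neat1* and *Peg13* did not match. The second of the 2 *Gas5* windows lies at chr1:161034916-161035215 on the plus strand, with a cyclic AMP response element and the CTTTC with which 4 of its 25 annotated transcripts start in capitals. The first of the 2 *Meg3* windows lies at chr12:109540746-109541045 on the plus strand, with the same response element in capitals.
*Gas5* promoter: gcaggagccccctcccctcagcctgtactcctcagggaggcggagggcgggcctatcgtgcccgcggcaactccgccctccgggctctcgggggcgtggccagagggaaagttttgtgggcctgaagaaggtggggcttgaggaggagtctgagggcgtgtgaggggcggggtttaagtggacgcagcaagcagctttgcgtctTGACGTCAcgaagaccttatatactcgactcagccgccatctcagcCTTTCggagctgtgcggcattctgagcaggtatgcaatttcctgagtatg
*Meg3* promoter: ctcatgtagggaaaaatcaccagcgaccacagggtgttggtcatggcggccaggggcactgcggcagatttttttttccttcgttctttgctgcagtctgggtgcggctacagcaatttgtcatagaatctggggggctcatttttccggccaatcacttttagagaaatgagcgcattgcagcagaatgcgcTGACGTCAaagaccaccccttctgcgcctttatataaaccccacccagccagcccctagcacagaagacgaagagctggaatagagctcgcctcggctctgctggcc
The *Malat1* stretch covers bases 6604 to 6691 of the 6983 bases of its longest GENCODE transcript. Its capitals mark a run of 12 A written in the genome together with the GCAAAA behind it, where processing by RNase P is known to leave an end without a poly(A) tail.
*Malat1* 3′ stretch: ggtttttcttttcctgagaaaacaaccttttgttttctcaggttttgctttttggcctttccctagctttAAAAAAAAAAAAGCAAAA
The last 60 bases of the longest *Neat1* transcript, which is 20771 bases long, end on the same 6 letters, shown in capitals.
*Neat1* 3′ end: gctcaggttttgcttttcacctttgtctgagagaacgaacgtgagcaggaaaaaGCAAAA

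No full GR element was found in the members' promoter windows. The palindrome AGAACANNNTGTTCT, searched on both strands, was in 0 of the 8 windows and in 0.00913% of the 32851 windows of the same length, and the looser GNACANNNTGTNC, which contains every match of the palindrome, was in 0 of 8 and in 0.475%. Neither form was found in any annotated transcript of the 8 genes. An arm of the element, the hexamer AGAACA, was in the *Rian* window only and in 18.97% of all windows. The cyclic AMP response element TGACGTCA, searched for after the sequences had been seen, was in the windows of *Gas5* and *Meg3* shown above and in 1.79% of all windows. These matches describe letters in windows of 300 bases, and the folded GR-binding stretch of *Gas5* is not visible to such a search. The paper states that GR often binds far from the start of its target genes, where these windows do not reach.

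The 8 genes differ in how cleanly their reads can be assigned. *Gas5* (chr1:161034422-161038539, plus strand, processed transcript) had 17.8% of its exonic bases in common with exons of other genes on its own strand, which include snoRNA genes. *Miat* (chr5:112213228-112229395, minus strand, lincRNA) shared 24.3% of its exonic bases with an exon of Gm26953 on the other strand. *Meg3* (chr12:109541001-109571726, plus strand, lincRNA) shared 6.79% with Gm26906 and *Malat1* (chr19:5795690-5802672, minus strand, lincRNA) 6.49% with Gm37376, both on the opposite strand. *Neat1* (chr19:5824708-5845478, minus strand, lincRNA) and *Rian* (chr12:109603940-109661716, plus strand, processed transcript) shared no exonic base with an opposite-strand gene. *Snhg11* (chr2:158375638-158386145, plus strand) is listed as protein coding in the GENCODE M21 annotation. *Peg13* (chr15:72805600-72810324, minus strand) lies inside *Trappc9* and is listed as sense intronic, so that unspliced *Trappc9* RNA of the same strand would be counted with it. The strand setting of the counting was not stated, so reads of genes that share exons cannot be told apart with certainty.

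The libraries held between 17492159 and 19931987 reads on genes, of which the 8 members together took 0.259% to 0.296%. Of the 12 lists of cell type markers, none held a marker at 0 reads in all libraries, and the 5 pyramidal cell markers, led by *Slc17a7*, summed to 1977 to 2770 CPM (counts scaled to the size of the library), as hippocampal tissue should show. A single gene, *Fkbp5*, a cochaperone of the GR and a known target of it, passed the threshold in the comparison of all genes, an adjusted p value under 0.05 in the quasi-likelihood test of edgeR. Its log2 fold change was 0.76 (SE 0.10, adjusted p value 0.0481 by edgeR), higher in 4 of 4 corticosterone libraries than in any vehicle library. With a library left out the log2 fold change ran from 0.69 to 0.86, but the call was lost in 6 of 8 such fits (adjusted p value up to 0.331 by edgeR), and also with at least 10 reads in every library (0.0530). Library 5 of the corticosterone group stood apart from the other 3, and results that rest on it are given with and without it.

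None of the 8 members passed this threshold, which 0.00624% of all genes did. DESeq2 called 0 of the 8 and 0.374% of all genes. None passed an unadjusted p of 0.05 either, as 9.03% of all genes did, and for none were the vehicle and corticosterone libraries fully separated, as they were for 3.66%. Of the 8 log2 fold changes, 4 were above 0, beside 50.7% over all genes. *Gas5*, the member with a known tie to the GR, had the smallest log2 fold change of the 8, with a fold change between 0.919 and 1.13 at 95% confidence. In whole tissue, fewer cells of a type and less RNA per cell cannot be told apart.

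*Gas5* had normalized counts of 2104, 2029, 1891 and 1840 in the 4 vehicle libraries and of 1895, 2054, 1986 and 2069 in the 4 corticosterone libraries. The lowest and the highest library both belonged to the vehicle group, so that the corticosterone values lay within the vehicle range. The means were 1966 ± 122 (SD, n = 4) and 2001 ± 79.4 (SD, n = 4), with a log2 fold change of 0.03 (SE 0.07, adjusted p value 0.898 by edgeR). An exact permutation test of the mean log2 values, two-sided over the 70 assignments of 4 against 4, gave p = 0.657, where the smallest p it can give is 0.0286. The interval of the log2 difference ran from -0.12 to 0.17, and with a library left out the difference lay between -0.01 and 0.06.

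The snoRNA host *Snhg11* had 9668, 10113, 10113 and 11116 normalized counts with vehicle and 9816, 11928, 10621 and 10399 with corticosterone. Corticosterone library 6 was the highest and vehicle library 1 the lowest, and the groups overlapped. The log2 fold change was 0.06 (SE 0.08, adjusted p value 0.761 by edgeR, exact permutation p = 0.514). It was 0.0039 without library 6 and 0.10 without library 5.

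Of the pair from the Dlk1-Dio3 domain, *Meg3* was by far the most abundant member by counts, with 19328, 22336, 21714 and 23235 in the vehicle libraries and 20846, 21546, 19872 and 20009 in the corticosterone libraries. Vehicle libraries 2, 3 and 4 were above all corticosterone libraries and vehicle library 1 was below all of them. Its log2 fold change was -0.07 (SE 0.07, adjusted p value 0.693 by edgeR, exact permutation p = 0.286), -0.13 without vehicle library 1 and -0.04 without vehicle library 4. *Rian*, its neighbour and host of many snoRNAs, had 6527, 7087, 6353 and 7507 with vehicle and 6770, 7527, 7267 and 7578 with corticosterone. Corticosterone libraries 6 and 8 were the highest and overlapped closely with vehicle library 4. The log2 fold change of *Rian* was 0.09 (SE 0.07, adjusted p value 0.661 by edgeR, exact permutation p = 0.200) and 0.05 without vehicle library 3.

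*Peg13*, from the other imprinted domain, had 5137, 5281, 5650 and 5494 normalized counts with vehicle and 5442, 4991, 5483 and 5014 with corticosterone. Corticosterone libraries 6 and 8 were slightly below all others and the remaining pair lay inside the vehicle range. The log2 fold change was -0.04 (SE 0.07, adjusted p value 0.806 by edgeR, exact permutation p = 0.429). It was -0.02 without vehicle library 3 or corticosterone library 6, -0.03 without corticosterone library 8, and -0.07 without vehicle library 1 or corticosterone library 7.

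Of the nuclear domain RNAs, *Malat1* had 3553, 3291, 3206 and 3665 normalized counts with vehicle and 3234, 3763, 3882 and 3715 with corticosterone. Corticosterone libraries 6, 7 and 8 were above all vehicle libraries, while library 5 lay near the bottom of the vehicle range. The log2 fold change of *Malat1* was 0.09 (SE 0.08, adjusted p value 0.660 by edgeR, exact permutation p = 0.229). It was 0.06 without vehicle library 3 or corticosterone library 7. Without library 5 the difference grew to 0.14, with an unadjusted p of 0.0428 and an adjusted p value of 0.156 by edgeR, in a fit in which 10.2% of all genes were called and 29.0% had an unadjusted p under 0.05.

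*Miat*, which binds splicing regulators, had 3566, 3909, 4173 and 3682 normalized counts with vehicle and 3758, 3507, 3346 and 3233 with corticosterone. Corticosterone libraries 6, 7 and 8 were below all vehicle libraries, and library 5 lay among them, in mirror image to *Malat1*. Of the 12 sums of cell type markers, those of pyramidal cells (2145 to 2770 CPM with vehicle, 2535 in library 5, 1977 to 2056 in libraries 6 to 8) and of GABAergic neurons (917 to 1032, 1014, 910 to 916) split in this way. Microglia markers were below all vehicle libraries (368 to 380 CPM) in library 5 (365) as well as in libraries 6 to 8 (291 to 336), and endothelial markers were also lower in all 4 (93.1 to 104 CPM) than with vehicle (107 to 115 CPM). Pan-neuronal, dentate granule cell and astrocyte sums were lower in library 5 than in libraries 6 to 8. The part of cell content in the differences of *Malat1* and *Miat* was not tested. *Miat* was the member with the smallest unadjusted p, 0.0677, at a log2 fold change of -0.15 (SE 0.07, adjusted p value 0.545 by edgeR, exact permutation p = 0.114). Without library 5 the log2 fold change was -0.19, with an unadjusted p of 0.0147 and an adjusted p value of 0.0858 by edgeR. Without vehicle library 1 the unadjusted p was 0.0426 and the adjusted p value 0.666 by edgeR, in a fit in which 0.117% of all genes were called and 7.33% had an unadjusted p under 0.05.

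*Neat1* had the fewest reads, with 341, 277, 285 and 291 normalized counts in the vehicle libraries and 271, 258, 274 and 283 in the corticosterone libraries. Vehicle library 1 was the highest, 3 corticosterone libraries were below every vehicle library, and corticosterone library 8 was above vehicle library 2. The log2 fold change was -0.14 (SE 0.10, adjusted p value 0.619 by edgeR), the smallest of the exact permutation p values, 0.0571, and 1 of the 8 such tests.

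**Figure D1:**
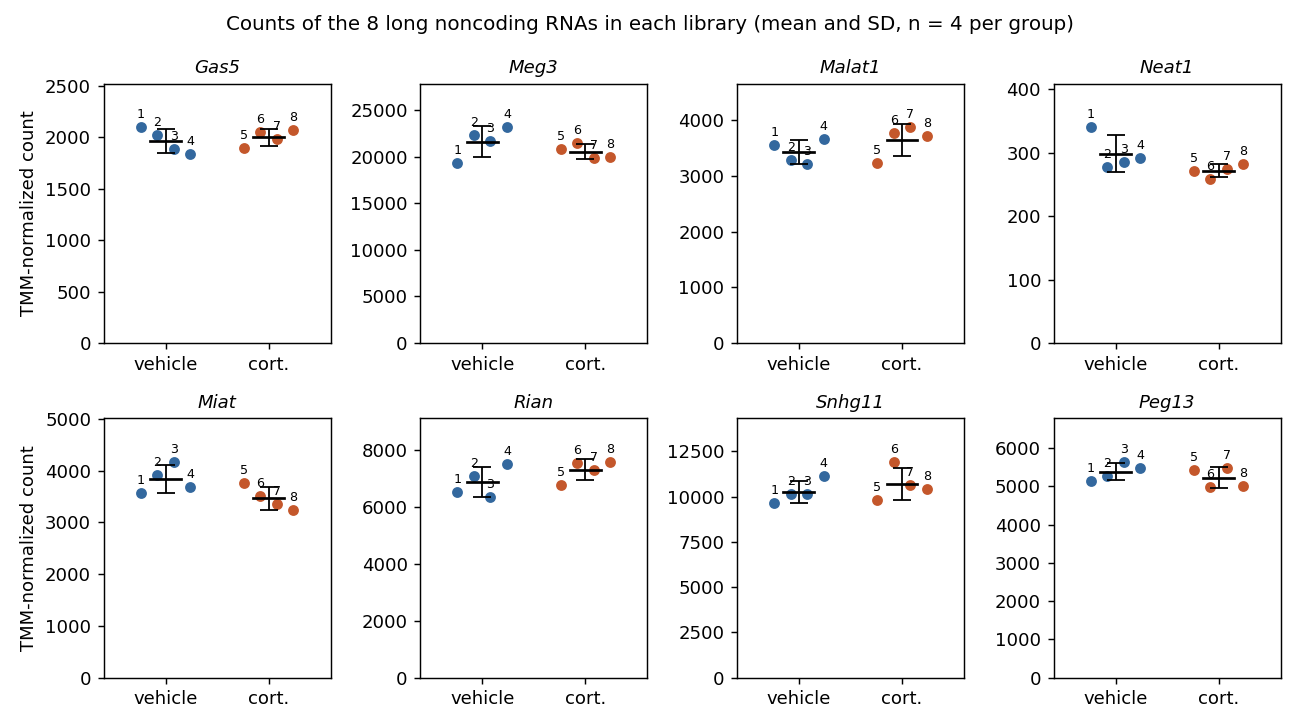
TMM-normalized counts (vertical axes from 0) of the 8 RNAs in each library, numbered as in the labels, for vehicle (blue) and corticosterone (orange); the horizontal line is the mean and the bar the SD (n = 4). The groups overlap in every panel; corticosterone libraries 6 to 8 lie above all vehicle libraries for *Malat1* and below them for *Miat*, while library 5 does not.

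The replicate spread of these RNAs was below the median of all genes, which include many of low count. Their coefficient of variation ran from 4.20% for *Peg13* to 9.65% for *Neat1* in the vehicle group and from 3.73% for *Neat1* to 8.34% for *Snhg11* in the corticosterone group, beside medians over all genes of 10.4% and 11.9%. Among the 8853 genes with at least the mean count of *Neat1* the medians were 7.73% and 8.72%, so that *Neat1* was above such genes with vehicle and *Meg3* and *Rian*, at 7.72% and 7.69%, were level with them. The share of all gene reads that fell on the 8 members was 0.279% ± 0.0162 (SD, n = 4) with vehicle and 0.278% ± 0.0100 (SD, n = 4) with corticosterone.

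Compared per kilobase of all annotated exons, the members covered a wide range of levels. *Snhg11* (64.2 ± 4.57 CPM per kb, SD over 8 libraries), *Meg3* (60.9 ± 3.87) and *Peg13* (58.7 ± 2.70) led, and the ranges of neighbours in this order overlapped. *Gas5* (27.5 ± 1.35) and *Malat1* (26.5 ± 1.96) followed with overlapping ranges, and then *Miat* (20.5 ± 1.71) and *Rian* (20.3 ± 1.37), again overlapping. *Neat1* stood far below at 0.716 ± 0.0619 CPM per kb, a level that exceeded 15.9% of the genes tested, while the other 7 members exceeded between 84.0% and 95.8% of them. The description of the members as abundant therefore held for 7 of them in this table and not for *Neat1* per length of its whole exon.

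The order of levels depended on the length that was used. Per kilobase of the longest transcript, *Rian* moved from 20.3 to 45.7 CPM per kb and stood above *Gas5* (40.5, ranges overlapping), *Malat1* (26.5) and *Miat* (20.8), while *Snhg11* (93.2), *Meg3* (75.8) and *Peg13* (58.7) no longer overlapped. *Gas5* has 25 annotated transcripts, of which 20 are listed with a retained intron. If all its reads, intron-retaining ones included, were set over the 665 bases of its longest transcript of lincRNA type, its level would be 156 CPM per kb, an upper value that cannot be ranked against the other members. *Neat1* has a short transcript of 3004 bases that starts almost where the long one does. Over that length its reads gave 4.95 ± 0.428 CPM per kb (SD over 8 libraries), which exceeded 51.7% of the genes tested, still the lowest of the 8. The counts do not say which transcript a read came from, and how much of *Malat1* and the long *Neat1* escaped enrichment for mRNA was not tested.

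**Figure D2:**
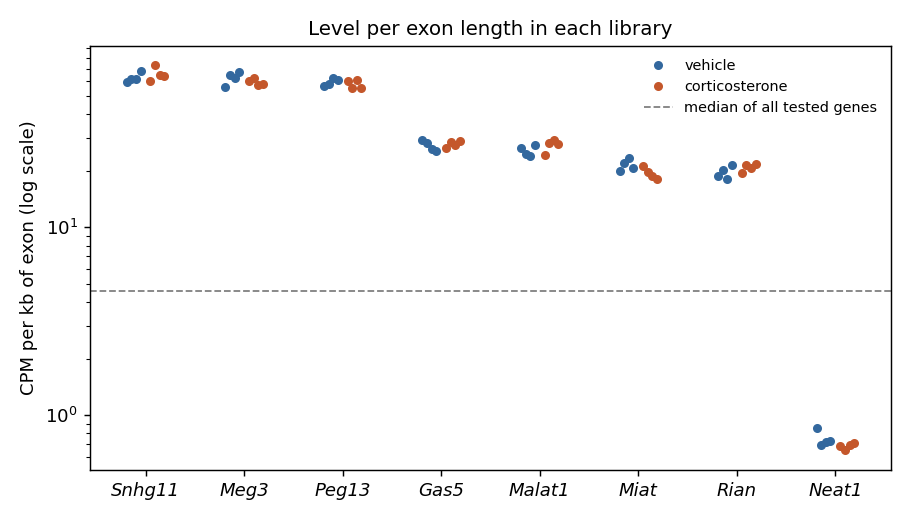
Level in CPM per kilobase of exon (log scale) in each library, vehicle in blue and corticosterone in orange, with the median of all tested genes, 4.61 CPM per kb, as a dashed line. 7 members lie above the median and *Neat1* lies below it in all 8 libraries.

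The snoRNAs and microRNAs inside these genes were almost without reads. The 10 snoRNA genes within *Gas5* had 0 reads in all libraries together. Of the 13 snoRNA genes within *Rian*, 4 had reads, 119 in all, and its 4 microRNA genes had 61. Of the snoRNA genes of *Snhg11*, Gm25129 had 56 reads and Gm25187 had 0. None had enough reads to be tested. The zeros went with shared exons, since the 21 snoRNA and microRNA genes that share exonic bases with their host all had 0 reads, while 9 of the 10 that do not had reads, 236 in all. Reads that fall on a host exon and a small RNA gene at once can be set aside as ambiguous by the counting, so a count of 0 does not show that a small RNA was absent, and this was not tested.

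The signs of the 8 small differences split the members by the base composition of their transcripts, a pattern noticed after the values had been seen. The 4 members with the lowest GC content, *Rian* (35.8%), *Gas5* (42.3%), *Malat1* (42.5%) and *Snhg11* (44.8%), all had log2 fold changes above 0. The 4 with the highest, *Neat1* (47.3%), *Meg3* (49.2%), *Peg13* (51.6%) and *Miat* (55.1%), all had log2 fold changes below 0. Over all genes the differences also fell with GC content, but changed sign at a higher GC content than in the members. Of the 983 genes with under 40% GC, 84.1% were higher with corticosterone (median log2 fold change 0.14), and of the 3545 genes with 55% or more, 17.3% were (median -0.14). *Neat1* and *Meg3* went against the genes of their class, from 45% to 50% GC, of which 63.1% were higher (median 0.04).

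The slope differed between libraries of the same group. The 4066 genes under 45% GC lay above the vehicle mean by a median of 0.19, 0.15 and 0.19 on the log2 scale in corticosterone libraries 6, 7 and 8, and by 0.11 in vehicle library 4. The same genes lay at -0.10 in corticosterone library 5, which was thus the lowest of all 8. The 7679 genes with 50% GC or more moved the other way, at -0.15, -0.11 and -0.14 in libraries 6, 7 and 8 and at 0.07 in library 5. The share of reads that fell on more than 1 gene also moved with the group, from 1.40% to 1.67% with vehicle and from 1.25% to 1.48% with corticosterone. The part of base composition or of these reads in the members' differences was not tested beyond the refits that follow.

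When GC and length trends were taken out library by library, an alternative chosen after seeing the data, all 8 members had log2 fold changes below 0. *Gas5* then stood at -0.08 (SE 0.06), *Rian* at -0.08 (SE 0.07), *Malat1* and *Snhg11* each at -0.02 (SE 0.05). *Meg3* moved to -0.14 (SE 0.07, adjusted p value 0.541 by edgeR) and *Miat* to -0.09 (SE 0.05, adjusted p value 0.607 by edgeR). *Neat1* had the lowest value, -0.24 (SE 0.10, unadjusted p 0.0267, adjusted p value 0.449 by edgeR), beside 9.74% of all genes with an unadjusted p under 0.05 in this fit. After the removal, *Malat1* in the corticosterone libraries lay between -0.06 and 0.04 of the vehicle mean, against -0.04 to 0.06 in the vehicle libraries. None of the 8 was called in this fit, in which 0.131% of all genes were. A fit that took ambiguous reads as covariate called 0.237% of all genes and 0 of the 8, and the sign of 4 members turned.

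**Figure D3:**
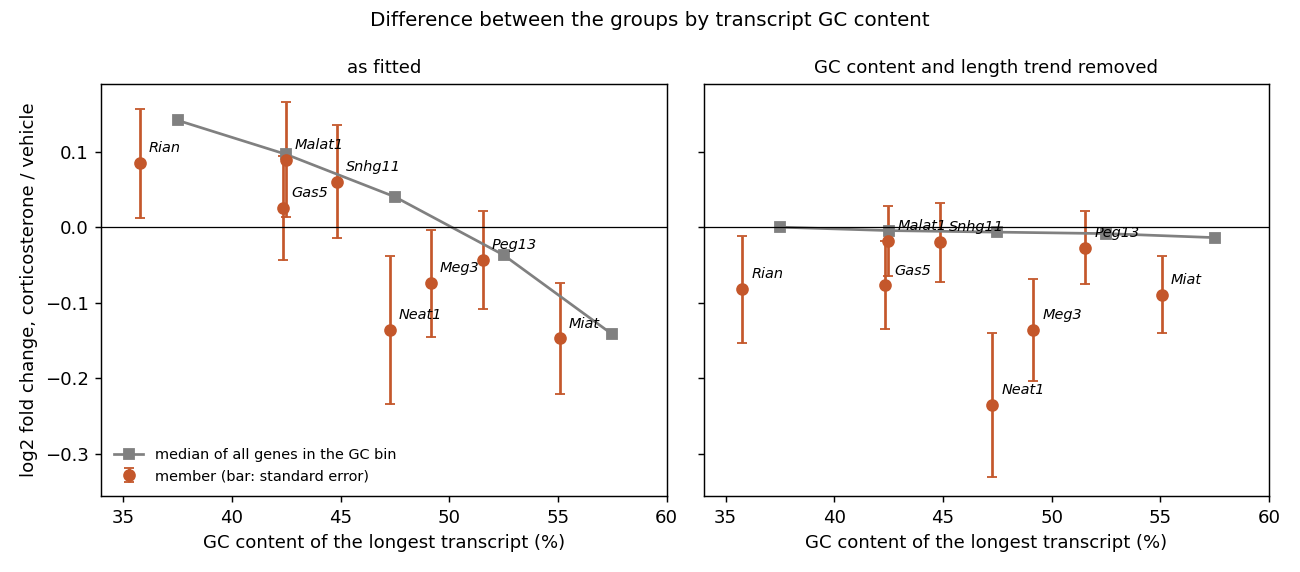
Log2 fold change (corticosterone over vehicle, vertical axis) against the GC content of the longest transcript (%) for the 8 members (orange, bar: standard error) and the median of all genes in 5 GC classes (grey squares; the outer classes, under 40% and from 55%, are drawn at an arbitrary position), as fitted on the left and with the GC and length trend removed on the right. On the left the medians descend from class to class, and the 4 members of lowest GC content lie above 0 and the other 4 below; on the right the medians lie near 0 and all 8 members lie below 0.

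*Neat1* was highest in the library in which the oligodendrocyte markers were highest. The sum of 5 oligodendrocyte markers, led by the myelin gene *Mbp*, was 3104 CPM in vehicle library 1, where *Neat1* was at 341, and 2425, 2144 and 1689 CPM in vehicle libraries 2 to 4. In the corticosterone libraries it was 2287, 1603, 1651 and 1716 CPM, and none of the 5 markers had a log2 fold change above 0. Outside vehicle library 1 the order of *Neat1* did not follow that of the oligodendrocyte markers. Without that library the log2 fold change of *Neat1* was -0.07, which was the smallest of its leave-one-out values, against -0.14 with it. The sum of microglia markers was also highest in vehicle library 1 (380 CPM) and next in vehicle library 4 (375 CPM), as *Neat1* was. This sum was lowest in corticosterone library 6 (291 CPM), where *Neat1* was lowest too. Between these libraries the orders were not the same. Oligodendrocyte precursor markers were highest in vehicle library 1 as well (333 CPM), but next in corticosterone library 5 (327 CPM). The part of cell content in the difference of *Neat1* was not tested.

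**Figure D4:**
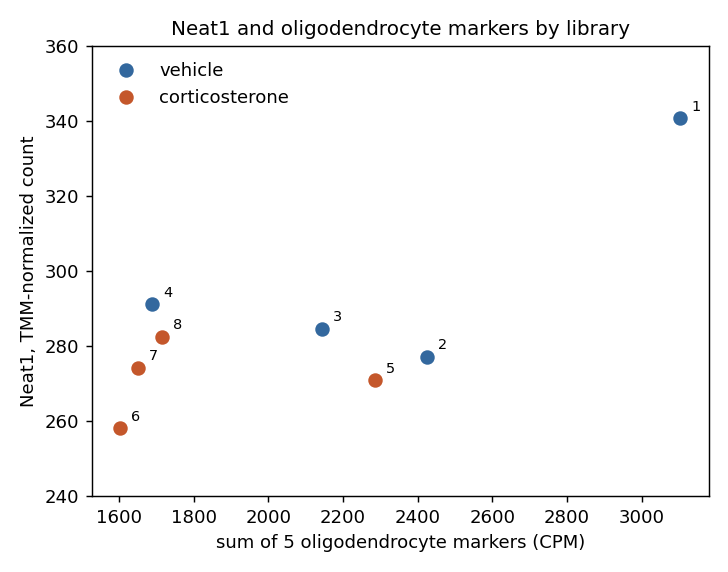
Normalized count of *Neat1* (vertical axis, not from 0) against the summed CPM of 5 oligodendrocyte markers (horizontal axis, not from 0), a point per library with its number, vehicle in blue and corticosterone in orange. Vehicle library 1 stands alone at the top right, at 341 counts and 3104 CPM; the other 7 libraries lie between 258 and 291 counts with no order along the marker axis.

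Members that are neighbours or share a compartment showed no relation that passed the test over the 8 libraries. *Meg3* and *Rian* gave r = 0.21 (exact permutation p = 0.608) and rho = 0.07 (p = 0.882), adjusted to 0.913 and 0.882 over the 3 relations computed. Without vehicle libraries 1 and 4, the farthest in *Meg3*, r was -0.40 over 6 libraries. *Malat1* and *Neat1* gave r = -0.05 (exact permutation p = 0.937) and rho = -0.29 (p = 0.501), adjusted to 0.937 and 0.751, and r = -0.27 over 6 libraries. *Malat1* and *Meg3* gave r = -0.29 (exact permutation p = 0.465) and rho = -0.33 (p = 0.428), adjusted to 0.913 and 0.751, and r = -0.34 over 6 libraries. As deviations from the group means, r was 0.51 (exact permutation p = 0.202) for *Meg3* and *Rian*, 0.30 (p = 0.478) for *Malat1* and *Neat1* and -0.14 (p = 0.746) for *Malat1* and *Meg3*.

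In the Dlk1-Dio3 domain, 11 of 12 listed genes were matched and 10 tested. No gene of these was called, beside 0.00624% of all genes, or had an unadjusted p under 0.05, beside 9.03%. Of the log2 fold changes 6 were above 0, beside 50.7% over all genes, and the median was 0.05, beside 0.00. *Dlk1*, a paternally expressed membrane protein of the Notch ligand type, had 275 ± 39.1 and 327 ± 92.4 normalized counts with vehicle and corticosterone (SD, n = 4; log2 fold change 0.25, SE 0.17). *Mirg*, the microRNA-bearing RNA downstream of *Rian*, had 171 ± 24.1 and 184 ± 19.6 (0.10, SE 0.13), and *Dio3*, which inactivates thyroid hormone, had 110 ± 56.6 and 140 ± 53.2 (0.34, SE 0.34). The lowest value was that of *Begain*, a postsynaptic protein gene, at -0.33 (SE 0.16, adjusted p value 0.545 by edgeR). The flanking genes *Wdr25* (0.13), *Wars* (-0.07), *Ppp2r5c* (-0.02) and *Dync1h1* (0.02) had small log2 fold changes. *Rtl1* had too few reads to be tested, with mean normalized counts of 1.72 and 3.39.

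In the domain of *Peg13*, all 6 listed genes were tested. None was called, beside 0.00624% of all genes, or had an unadjusted p under 0.05, beside 9.03%. The median log2 fold change was -0.04. *Trappc9*, the host gene of *Peg13*, had 2074 ± 166 and 1902 ± 237 normalized counts (SD, n = 4; log2 fold change -0.13, SE 0.09). *Kcnk9*, a potassium channel gene expressed from the maternal copy, had 140 ± 31.5 and 137 ± 10.6 (-0.03, SE 0.16). *Chrac1* (-0.10), *Ago2* (-0.03) and *Ptk2* (0.02) varied as little.

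The other genes with which the members share a class or a partner were in 9 lists, in which *Fkbp5* alone passed the threshold. Of 28 snoRNA host genes, 25 were matched and 24 tested, with 0 called, 1 at an unadjusted p under 0.05, beside 9.03% of all genes, and a median log2 fold change of 0.03. The most abundant of them outside the 8 members, the chaperone gene *Hspa8*, the initiation factor gene *Eif4a2* and the nucleolin gene *Ncl*, stood at 0.06 (SE 0.06), 0.11 (SE 0.08) and 0.17 (SE 0.09). Of 20 translation genes with the pyrimidine-rich start that *Gas5* shares, 0 were called, 1 had an unadjusted p under 0.05 and 13 log2 fold changes were below 0, with *Eef1a1* at -0.03, *Eef2* at -0.16 and *Rpsa* at -0.18. *Eef1b2* was higher in all 4 corticosterone libraries than in any vehicle library, at a log2 fold change of 0.09 (SE 0.06, adjusted p value 0.595 by edgeR), as were 1.99% of all genes.

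Among the partners of the nuclear RNAs, 0 of 20 paraspeckle protein genes were called and 0 had an unadjusted p under 0.05, beside 9.03% of all genes. Their median log2 fold change was 0.04, with *Hnrnpk* at 0.14, *Smarca4* at -0.11 and *Ewsr1* at -0.06. Of 18 genes of nuclear speckles and splicing 0 were called and 2 had an unadjusted p under 0.05, beside 9.03% of all genes. Of their log2 fold changes 13 were above 0, beside 50.7% over all genes, with a median of 0.08. *Srrm2* stood at 0.00, *Son* at 0.05 and the spliceosome gene *Sf3b1* at 0.16 (SE 0.07, adjusted p value 0.537 by edgeR). Of the 4 partners of *Miat* 0 were called and 1 had an unadjusted p under 0.05, beside 9.03% of all genes. Of their log2 fold changes 1 was above 0, beside 50.7% over all genes, and the median was -0.12. A list of 4 genes is too short to be set against these shares. *Srsf1* stood at 0.10 (SE 0.10), *Qk* stood at -0.20 (SE 0.10), *Sf1* at -0.04 (SE 0.07) and *Celf3*, a splicing regulator of neurons, at -0.37 (SE 0.13, adjusted p value 0.486 by edgeR).

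The list of GR genes and targets was where the only call lay, and 6 of its 10 genes had an unadjusted p under 0.05, beside 9.03% of all genes. Beside *Fkbp5*, both *Zbtb16* (log2 fold change 0.26, SE 0.08, adjusted p value 0.465 by edgeR) and *Pdk4* (0.57, SE 0.15, adjusted p value 0.332 by edgeR) were higher in 4 of 4 corticosterone libraries than in any vehicle library, as were 1.99% of all genes. The genes of the receptors themselves, *Nr3c1* for the GR and *Nr3c2* for the mineralocorticoid receptor, stood at -0.21 (SE 0.11, adjusted p value 0.546 by edgeR) and -0.23 (SE 0.09, adjusted p value 0.512 by edgeR). Targets in this list had been picked as known targets and in part with earlier results of these samples in view.

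**Figure D5:**
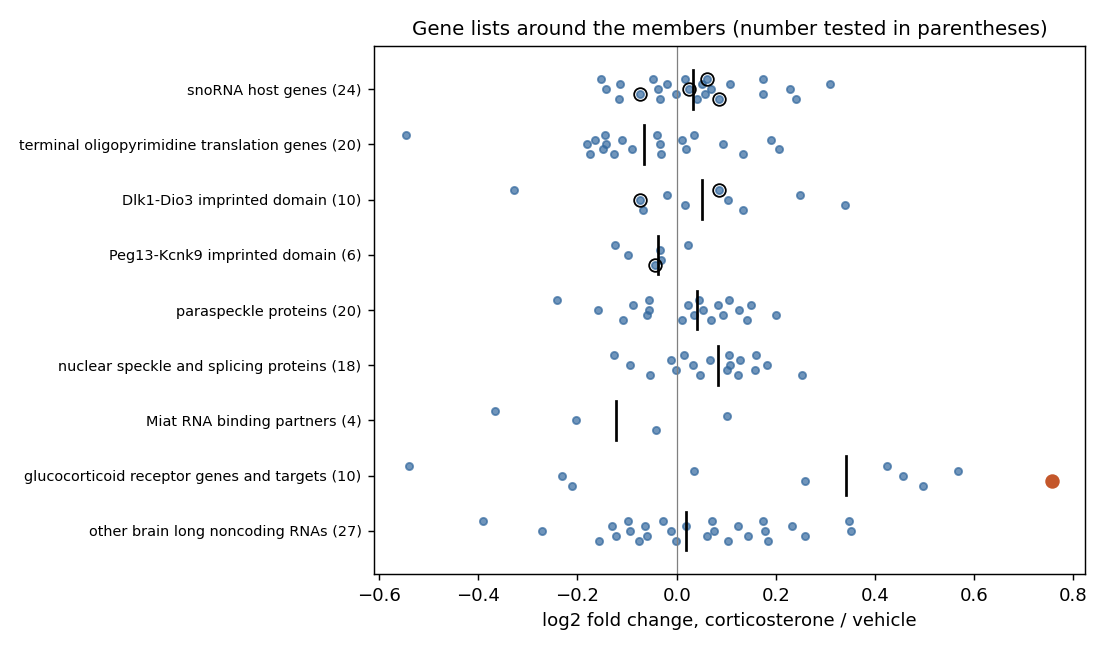
Log2 fold change (corticosterone over vehicle, horizontal axis) of every tested gene of the 9 lists, a blue point per gene with the vertical position within a list arbitrary; black bars are medians, open black circles mark the members and the large orange point marks the gene with an adjusted p value under 0.05, *Fkbp5* at 0.76. The members lie near 0 within their lists and the list medians range from -0.12 to 0.34.

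Long noncoding RNAs as a class were also examined. Of the 935 genes of long noncoding types that were tested, 0 were called by edgeR, 51 (5.45%, beside 9.03% of all genes) had an unadjusted p under 0.05, the groups did not overlap for 28 (2.99%, beside 3.66%), and the median log2 fold change was -0.01, while 1 of 13901 protein-coding genes was called. Of 40 other brain long noncoding RNAs that were listed, 35 were matched and 27 tested, with 0 called and 2 at an unadjusted p under 0.05. The abundant imprinted *Nnat*, which encodes a small protein, stood at 0.08 (SE 0.08), *1700020I14Rik* at 0.12 (SE 0.12) and *2900097C17Rik* at 0.00 (SE 0.08). *Pantr1*, the partner transcript of *Pou3f3*, was lower in 4 of 4 corticosterone libraries than in any vehicle library (902 ± 31.2 against 809 ± 68.1 normalized counts, SD, n = 4; adjusted p value 0.545 by edgeR), as were 1.68% of all genes, and *A330008L17Rik* was higher in 4 of 4 (62.1 ± 6.97 against 74.2 ± 3.92; adjusted p value 0.569 by edgeR).

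Around the members, 172 annotated genes lay within 100 kb of an end, 30 of them, 4 of which are members themselves, were tested, and 0 were called by edgeR while 4 had an unadjusted p under 0.05. Among the 26 that are not members, the groups did not overlap for 3, or 11.5%, beside 3.66% of all genes, and the 4 were 15.4%, beside 9.03%. *Frmd8*, 4224 bp from *Neat1*, had 328 ± 40.2 and 226 ± 34.7 normalized counts (SD, n = 4; log2 fold change -0.54, SE 0.13, adjusted p value 0.250 by edgeR), and *Cdc42ep2*, on the same side of chromosome 19, had 195 ± 12.7 and 133 ± 18.98 (-0.55, SE 0.13, adjusted p value 0.250 by edgeR). *Lbp*, which encodes the lipopolysaccharide-binding protein and lies 42786 bp from *Snhg11*, had 30.7 ± 7.75 and 66.8 ± 23.9 (1.13, SE 0.27, adjusted p value 0.270 by edgeR). These genes were singled out after their values had been seen. The gene *Zbtb37*, whose span overlaps that of *Gas5*, stood at -0.01 (SE 0.12).

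The genes whose profiles over the 8 libraries came closest to a member were found by the root mean square difference of centred log2 values. For *Gas5* they were *Pttg1* (0.0324) and *Sgms1* (0.0330), and for *Malat1* *Paip2b* (0.0153) and *Clcn3* (0.0268). For *Meg3* they were *Atp5s* and *Pde9a*, for *Rian* *Zkscan3* and *Ranbp6*, and for *Neat1* *Serinc5* and *Nek6*. *Miat* was closest to *Stard3* and *Zfp512b*, *Snhg11* to *Slc7a6* and *Ccser1*, and *Peg13* to *Urb1* and *Acin1*. No member was the nearest of another member. The choice was made among 11929 to 15202 genes per member with at least the member's SD, and the 8 libraries share the GC slope described above.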

How the data were processed

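RNA-seq was performed on the ventral hippocampus of 8 mice, 4 per group. The authors aligned reads to mm10 with GSnap and counted them per gene with HTSeq-count; the deposited values are raw counts, and the annotation release and strand setting were not given in the sources used here. Rows that name no gene (no feature 5.40% to 5.89%, ambiguous 1.25% to 1.67%, not unique 0.0420% to 0.111% of reads) were left out, and 0 columns were unused. Symbols, exons and transcripts came from GENCODE M21 (GRCm38), promoters from RefSeq (GRCm38.p6).

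Counts were TMM-normalized and tested in edgeR 4.0.16 (R 4.3.3) with filterByExpr, the quasi-likelihood test and Benjamini-Hochberg adjustment over all 16018 genes. Normalized counts were scaled to the mean effective library, and log2 values used a prior count of 2. Levels are CPM per kb of merged exons. Alternatives were DESeq2 1.42.0, its size factors in edgeR, TMM without the members, no filter, at least 10 reads in every library, limma-voom (limma 3.58.1), ambiguous reads as covariate and each library left out; removal of GC and length trends (splines with 5 degrees of freedom) and a short transcript for *Gas5* and *Neat1* were added after seeing the data. The fits were tested on simulated data. Single values used exact permutation (scipy 1.17.1).

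The members and lists were chosen with earlier results of these data known. Named were the 8 members, the 3 most abundant other genes of each list, list genes called or not overlapping, all genes of both imprinted domains, and the 2 closest profiles per member. The methods give 4 mice per group, 1 library each. 2 genes are not reported here, and 1 of them was left out of the oligodendrocyte sum.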

Additional observations from a re-analysis of the deposited data

How the results depend on the processing

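No member was called by edgeR, DESeq2 or limma-voom on all libraries. The other alternatives and the fits with each library left out were run in edgeR, and no member was called in them. No paired analysis was made because the labels and methods name no pairing of vehicle with corticosterone mice. The number of genes called overall was 1, and it was 63 with DESeq2, 79 with no filter, 0 with at least 10 reads in every library (1330 at an unadjusted p under 0.05), 38 with ambiguous reads as a covariate, 21 with the GC and length trend removed, and 0 to 1651 with a library left out, the last without corticosterone library 5. Among the neighbours it was 3 with DESeq2, 2 with no filter and 0 to 6 with a library left out, and among long noncoding genes 1 with DESeq2, 3 with no filter, 1 with the covariate and 0 to 17 with a library left out, each again highest without library 5.

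Of 64 log2 fold changes of members with a library left out, 63 kept their sign, and *Gas5* ranged from -0.0097, without vehicle library 4, to 0.057. With ambiguous reads as a covariate *Malat1* turned to -0.12, *Rian* to -0.093, *Snhg11* to -0.11 and *Miat* to 0.0014, and with the GC and length trend removed *Gas5* turned to -0.077, *Malat1* to -0.018, *Rian* to -0.082 and *Snhg11* to -0.020. The split into the 4 members of lowest and the 4 of highest GC content, placed after the signs were seen, matched the sign in 8 members as fitted. In either of these refits it matched in 4. With the trend removed all 8 values were below 0, so that no count other than 4 was possible, and no conclusion is drawn from it. The correlation of *Malat1* with *Neat1* was 0.30 as deviations from the group means and -0.18 to 0.14 with a library left out, and that of *Meg3* with *Rian* was 0.51 and -0.065 to 0.43, and that of *Malat1* with *Meg3* was -0.14 and -0.55 to -0.13. Per kb of the longest transcript the levels were 40.5 for *Gas5*, 75.8 for *Meg3*, 45.7 for *Rian* and 93.2 for *Snhg11*, and per kb of a short transcript 155.7 for *Gas5* and 4.95 for *Neat1*. The causes were not tested. With 4 libraries per group and about 300 reads per library, *Neat1* had the widest interval of the 8.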
